A study of Mus musculus with 2 samples.

Results

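The mouse mitochondrial genome encodes 37 genes, and all 37 were taken here as the genes whose symbol starts with mt- among 55536 annotated genes. They comprise 13 mRNAs for subunits of the respiratory chain and the ATP synthase, 2 ribosomal RNAs and 22 transfer RNAs, each with 1 annotated transcript. They were measured in polyadenylated RNA from hippocampus of adult C57BL/6 mice, strain B6NCrl, aged 6 months, with no treatment or transgene named in the labels. The series holds 1 group of 2 libraries, labelled biological replicates 1 and 2, each made from 20 ng of RNA. They carry separate tissue identifiers but 1 donor identifier, and nothing states that separate animals were used, so the spread between them may be technical. Reads had been assigned to genes by 2 quantification programs. The tables of the first have a line per gene and columns named as RSEM names them, and those of the second have a line per transcript and columns named as by kallisto.

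The first program held 38921662 expected counts in replicate 1 and 39499350 in replicate 2, and the second held 55151358 and 55608083 estimated counts. Markers of hippocampal neurons were present, with 7 of 7 at 1 TPM or more in both libraries (TPM is a level per length, scaled to the same sum in each library). The libraries differed in choroid plexus genes. The 8 listed summed to 16080 TPM in replicate 1 and 227 TPM in replicate 2, and 8 of 8 were past 2-fold higher in replicate 1, while 6 of 8 were at 1 TPM or more in both. Of all 17300 genes compared, 3.65% were. Ependymal genes summed to 147 and 89.0 TPM, red blood cell genes to 33.4 and 20.4, microglial genes to 556 and 582, and oligodendrocyte genes to 3484 and 3880. The labels call the mice male in 1 field and leave the sex field as not collected, and the 4 Y-linked genes Ddx3y, Eif2s3y, Uty and Kdm5d together had 1 read in replicate 1 and 0 in replicate 2, which goes against the male label. A count of 0 allows up to 3 reads per library, for counting error only.

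Mitochondrial DNA is transcribed from both strands into long precursors that run through many genes. Transfer RNAs lie between most mRNAs and rRNAs, and enzymes that cut at both ends of each tRNA release the RNAs between them. Most of the mRNAs then receive a poly(A) tail, while mature tRNAs receive CCA at their 3′ end and are not selected by their own poly(A) tail. In brain, the encoded proteins serve the oxidative phosphorylation that powers ion pumping and synaptic transmission.

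The 37 genes sit close together, from base 1 to base 15422 of chromosome M in mm10. Of 36 pairs of neighbours, 9 overlap, 12 adjoin with no base between them, and the largest gap is 32 bases. On the plus strand lie 28 genes, and the other 9, mt-Nd6 and 8 tRNAs, lie on the minus strand. The sources used here do not say whether strand was used in assigning reads, so reads of a gene and of RNA antisense to it cannot be told apart.

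The longest overlap joins both ATP synthase subunit genes, whose coding sequences are read in different frames of the same RNA. It is shown because every read inside it belongs to both genes. Capitals mark the start codon of mt-Atp6 and the stop codon of mt-Atp8 on the plus strand:
mt-Atp8 and mt-Atp6 overlap, chrM:7927-7969: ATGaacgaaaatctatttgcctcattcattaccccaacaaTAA
The genes mt-Nd4l and mt-Nd4 share 7 bases, given in capitals within the stretch around them:
mt-Nd4l and mt-Nd4 overlap, chrM:10155-10185: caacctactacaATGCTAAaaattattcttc

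The 3′ ends of the mRNAs differ in how the reading frame closes. In 10 of 13 the annotated sequence ends on a complete stop codon. In mt-Co3, mt-Nd4 and mt-Cytb it ends 1 base after the last full codon, on a T that the poly(A) tail is known to extend to TAA. The last 21 bases of these mRNAs are shown beside those of mt-Co1 and of mt-Nd6, the mRNA on the minus strand, with the stop codon or its first letter in capitals:
mt-Co3, chrM:9370-9390, plus strand: ccatttattgatgaggatctT
mt-Nd4, chrM:11524-11544, plus strand: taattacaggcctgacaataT
mt-Cytb, chrM:15268-15288, plus strand: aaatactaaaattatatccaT
mt-Co1, chrM:6852-6872, plus strand: acctatgtaaaagtaaaaTAA
mt-Nd6, chrM:13552-13572, minus strand: atcgagattactcgagatTAA
All sequences here were taken from the transcripts of the M21 annotation on mm10. The start codon was ATG in 9 of 13 mRNAs, GTG in mt-Nd1, ATA in mt-Nd2, ATT in mt-Nd3 and ATC in mt-Nd5.

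Mitochondrial genes took 6.42% of expected counts in replicate 1 and 7.01% in replicate 2 (mean 6.72% ± 0.414, SD, n = 2). The mRNAs took 2.72% and 2.54%, the rRNAs 3.71% and 4.46%, and the tRNAs 0%. The second program gave 8.05% and 8.56% to all 37 genes. It put 3.38% and 3.09% on the mRNAs, 4.58% and 5.37% on the rRNAs, and 0.0940% and 0.0987% on the tRNAs. In both programs the rRNAs held more reads than the mRNAs in each library, and the rRNA share was the higher in replicate 2 and the mRNA share in replicate 1. Summed as TPM the order turned: the 13 mRNAs took 6.75% and 6.60% of TPM of the first program and the 2 rRNAs 3.47% and 4.09%. By TPM of the second program the mRNAs took 7.20% and 6.69% and the rRNAs 3.70% and 4.11%. Per gene the order did not turn. The first-program median was 17359 and 20454 TPM over the 2 rRNAs, and 2215 and 1895 TPM over the 13 mRNAs. By mean TPM of the first program, 10 of 13 mRNAs and 2 of 2 rRNAs were among the 100 highest genes.

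The rRNAs were uneven. The large ribosomal RNA mt-Rnr2 (chrM:1094-2675) had 31034 TPM in replicate 1 and 37493 in replicate 2, and alone took 3.48% and 4.25% of all expected counts. The small ribosomal RNA mt-Rnr1 (chrM:70-1024) had 3684 and 3416 TPM. The level of mt-Rnr2 was thus 8.42 and 11.0 times that of mt-Rnr1 per length by TPM, and 7.89 and 10.1 times by the second program. Both are parts of the same ribosome. In this poly(A)-selected RNA their levels do not give the makeup of that ribosome.

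Among mRNAs, the ATP synthase subunits stood highest by TPM. The gene mt-Atp8, which encodes a short membrane subunit, had 22051 TPM in replicate 1 and 23882 in replicate 2, and mt-Atp6, the subunit that forms part of the proton channel, had 16420 and 16171 TPM. The ranges of these genes did not overlap. Their order rested on the length used. The annotated length of mt-Atp8 is 204 bases, but TPM divides by an effective length, the number of places a fragment can start, which was 65.6 and 71.7 bases in the first program and 94.8 and 96.5 in the second. In RPKM by annotated length (reads per kilobase, scaled to library depth), mt-Atp8 had 5549 and 6598 in the first program against 10003 and 10082 for mt-Atp6. By that scale mt-Atp6 was thus 1.80 and 1.53 times mt-Atp8, whereas by TPM mt-Atp8 was 1.34 and 1.48 times mt-Atp6. In the second program the annotated-length values were close, 9788 and 10982 for mt-Atp8 and 10292 and 10095 for mt-Atp6. By annotated length in the first program, the range of mt-Atp8 overlapped that of mt-Nd1, at 6132 and 5493.

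Complex IV, cytochrome c oxidase, has a catalytic core made of the 3 mitochondrial subunits, and by TPM their mRNAs all stood below mt-Nd1 of complex I. Its copper-binding subunit gene mt-Co2 had 5441 and 5388 TPM, and mt-Co1, which holds the site of oxygen reduction, had 3361 and 2819. The third subunit gene, mt-Co3, had 1431 and 1895 TPM in the first program and 5494 and 5150 in the second. Its place therefore depended on the program: it was below mt-Co1 in the first and beside mt-Co2 in the second. The only mitochondrial subunit of complex III, cytochrome b from mt-Cytb, had 1684 and 1544 TPM.

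Complex I, the NADH dehydrogenase, has 7 mitochondrial subunits, all part of its membrane arm, and their mRNAs spanned the widest range. The gene nearest to the rRNAs, mt-Nd1, had 9301 and 8196 TPM. Lower down stood mt-Nd2 with 2381 and 1928 TPM and mt-Nd4 with 2215 and 1734. The short mt-Nd3 had 1673 and 1328 TPM, and mt-Nd5, the longest mRNA, had 897 and 768. The second program gave these 5 genes TPM near those values, such as 2216 and 1646 for mt-Nd4 and 899 and 735 for mt-Nd5. By share of reads all 5 were higher there, from 1.12 and 1.08 times for mt-Nd1 to 1.36 and 1.33 times for mt-Nd2. TPM of the second program is also shared with the tRNAs, which have 0 TPM in the first. The only mRNA of the minus strand, mt-Nd6, had 566 and 378 TPM in the first program and 746 and 496 in the second. Lowest in the first program was mt-Nd4l, at 35.4 and 12.9 TPM, where the second gave 1272 and 975. It is read from the same RNA as mt-Nd4, which was 62.5 and 134 times as high by TPM of the first program and 1.74 and 1.69 times by that of the second.

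**Figure D1:**
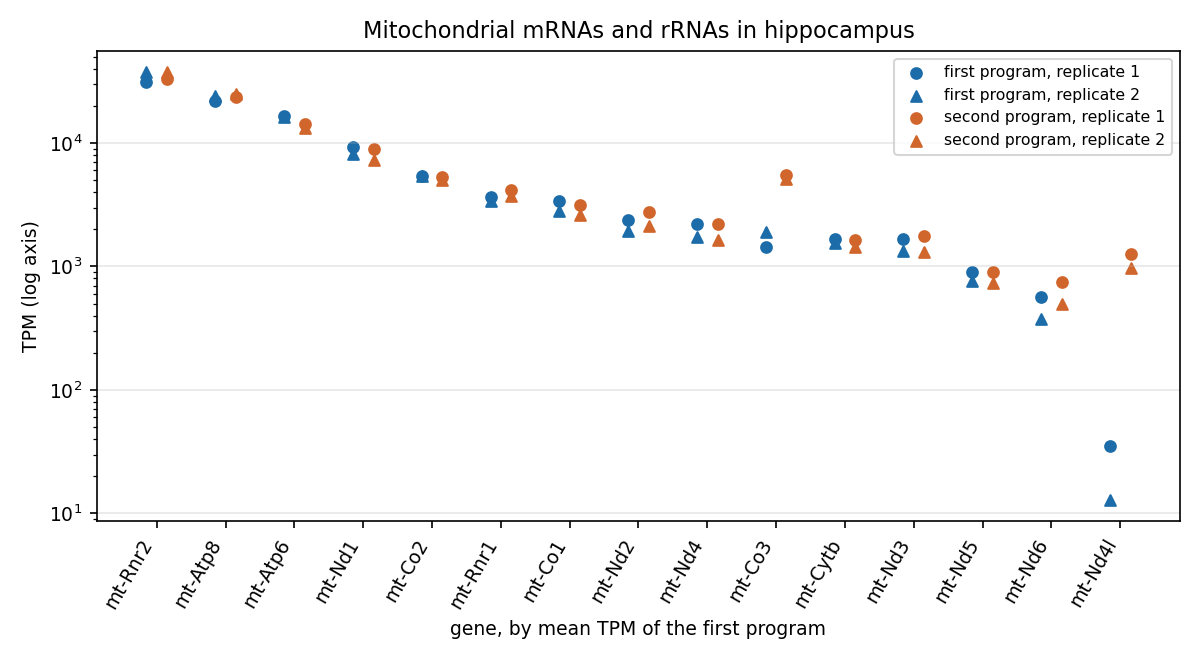
TPM of the 13 mRNAs and 2 rRNAs on a log axis, with 1 point per library and program, ordered by mean TPM of the first program. The programs lie close for most genes and apart for mt-Co3 (1431 and 1895 against 5494 and 5150 TPM) and mt-Nd4l (35.4 and 12.9 against 1272 and 975 TPM).

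In the order by TPM of the first program, 4 of 12 neighbouring mRNA pairs had overlapping library values: mt-Nd2 and mt-Nd4, mt-Nd4 and mt-Co3, mt-Co3 and mt-Cytb, and mt-Cytb and mt-Nd3. In the second program 6 of 12 overlapped. The positions of mt-Atp8, mt-Atp6 and mt-Nd1 as the 3 highest mRNAs by TPM were the same in both programs and both libraries.

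Among the mRNAs, the programs differed most for mt-Co3 and mt-Nd4l, which have copies in nuclear DNA that repeats part of the mitochondrial genome. A search of all annotated transcripts for stretches of at least 100 bases shared with a member found 10 nuclear genes, all annotated as unprocessed pseudogenes. Of these, 7 lie in a row within 4663 bases at chr1:24611535-24616197, with 3 more on chromosome 2. The 7 match mt-Co1, mt-Co2, mt-Atp6, mt-Co3, mt-Nd3, mt-Nd4l and mt-Nd4, in the order of the mitochondrial genome, and 5 of the 7 are identical to their member over their whole length. The chromosome 2 copies had at most 14.1 reads in the first and 218 in the second program.

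The copies of mt-Co3 and mt-Nd4l lack the last letters of the mitochondrial gene and match it elsewhere at each base. Their ends are shown because reads inside them match either equally. Each pair is given 5′ to 3′, with the letters that the copy lacks in capitals:
mt-Co3, chrM:9360-9390, plus strand: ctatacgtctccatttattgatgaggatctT
Gm28437, chr1:24613189-24613218, minus strand: ctatacgtctccatttattgatgaggatct
mt-Nd4l, chrM:10141-10173, plus strand: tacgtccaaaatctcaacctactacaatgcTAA
Gm10222, chr1:24612407-24612436, minus strand: tacgtccaaaatctcaacctactacaatgc
The copy of mt-Co1, Gm29216, covers bases 1054 to 1545 of the member and differs at 6 of 492 bases. Counted from 1 at the 5′ end of mt-Co1, with the base of mt-Co1 first, these are T1056A, C1057T, A1059G, A1060G, C1062A and A1066T. All lie in the first 30 bases of the copy, shown with the differing letters in capitals:
mt-Co1, chrM:6381-6410, plus strand: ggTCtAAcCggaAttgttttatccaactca
Gm29216, chr1:24616168-24616197, minus strand: ggATtGGcAggaTttgttttatccaactca
The copy of mt-Nd3, Gm28438, differs at T3C, in the start codon.

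For mt-Co3, the first program assigned 27602 reads in replicate 1 and 37845 in replicate 2 to the mitochondrial gene, and 83466 and 76758 to Gm28437. The copy thus held 75.1% and 67.0% of the pair. The second program gave mt-Co3 177444 and 176564 reads and Gm28437 160 and 50.4, or 0.0903% and 0.0285%. The deposited posterior columns of the first program show how loosely the pair was divided: the authors' posterior mean for mt-Co3 was 47939 reads in replicate 1 with a posterior SD of 4970, and 52068 with 4984 in replicate 2. Those means lie above the expected counts by more than 2 such SDs.

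For mt-Nd4l, the first program assigned 161 and 63.6 reads to the member and 4862 and 4303 to Gm10222, which held 96.8% and 98.5% of the pair. The second program gave 11032 and 9115 reads to mt-Nd4l and 0 to Gm10222. The pair mt-Co1 and Gm29216 was divided much alike by both: the copy held 30.2% and 29.1% in the first program and 30.9% and 27.7% in the second, or 61819 and 50497, and 98835 and 72917 reads. Gm29216 covers 492 of the 1545 bases of mt-Co1, so the pair also counts mt-Co1 reads from outside the shared stretch. By TPM, Gm29216 stood above mt-Co1, at 5948.6 and 4629.5 against 3361 and 2819 in the first program. In the second program it had 5505 and 3797 against 3170 and 2587. The division inside the shared stretch was not measured. The other 4 copies, of mt-Co2, mt-Atp6, mt-Nd3 and mt-Nd4, held at most 2.10% of their pair. For mt-Atp6 the expected count was 265145 in replicate 1 with 0 on the copy Gm10925, but the authors' posterior mean was 253190 with 11955 on the copy. In all, the chromosome 1 copies took 150364 and 131559 reads in the first program and 99089 and 73062 in the second. These pseudogene levels and those of their members are therefore uncertain. The order of the complex IV mRNAs also rested on the copies. With copies added, an alternative chosen after seeing the data, RPKM by annotated length in the first program was close among them. It was 3402 and 2841 for mt-Co1, 3319 and 3363 for mt-Co2 and 3640 and 3701 for mt-Co3.

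**Figure D2:**
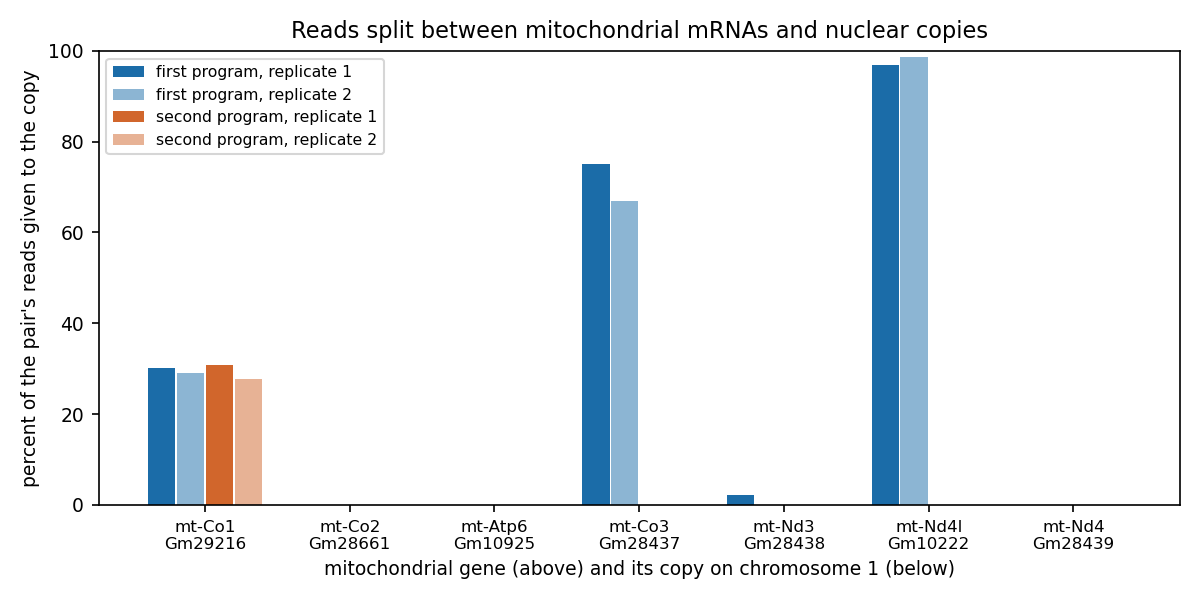
Percent of the reads of each member and its chromosome 1 copy that went to the copy, for 7 pairs, with 1 bar per program and library. The copy held most of the mt-Co3 and mt-Nd4l pairs in the first program (67.0% to 98.5%) and almost none in the second, and between 27.7% and 30.9% of the mt-Co1 pair in both. The mt-Co1 copy covers 492 of the 1545 bases of its member, so its percent is not of the shared stretch alone.

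Gene by gene, reads were compared between programs as a log2 ratio of the second over the first, after scaling each to its own total. The tables of both programs belong to the same 2 libraries, so their values are not independent, and no test was made. Past 2-fold in the same direction in both libraries were 2 of the 15 mRNAs and rRNAs, mt-Co3 and mt-Nd4l, both higher in the second program. Of 19747 genes compared, 9.60% were past 2-fold, 8.07% higher and 1.53% lower in the second program. The 22 tRNAs also count as past 2-fold, which makes 24 of 37, but they are listed at 0 in the first program with an effective length of 0 and entered the comparison only through the second, so their calls were fixed by construction and nothing is read from them. The ratio of mt-Co3 was 2.18 in replicate 1 and 1.73 in replicate 2, and that of mt-Nd4l was 5.59 and 6.66. With the chromosome 1 copies added to their members, an alternative chosen after seeing the data, these became 0.17 and 0.13 for mt-Co3 and 0.63 and 0.57 for mt-Nd4l, and 0 of 13 mRNAs were past 2-fold.

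Below 2-fold, the second program also gave a larger share to each of the other mRNAs and to both rRNAs in both libraries. Over 13 mRNAs the median log2 ratio was 0.23 in replicate 1 and 0.20 in replicate 2, and over the 2 rRNAs it was 0.35 and 0.33. Over all genes compared the median was -0.02 in both libraries, and 36.2% had a higher share in the second program in both. The ratio was 0.82 and 0.73 for mt-Atp8, 0.68 and 0.71 for mt-Nd6, and 0.04 and 0.00 for mt-Atp6.

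**Figure D3:**
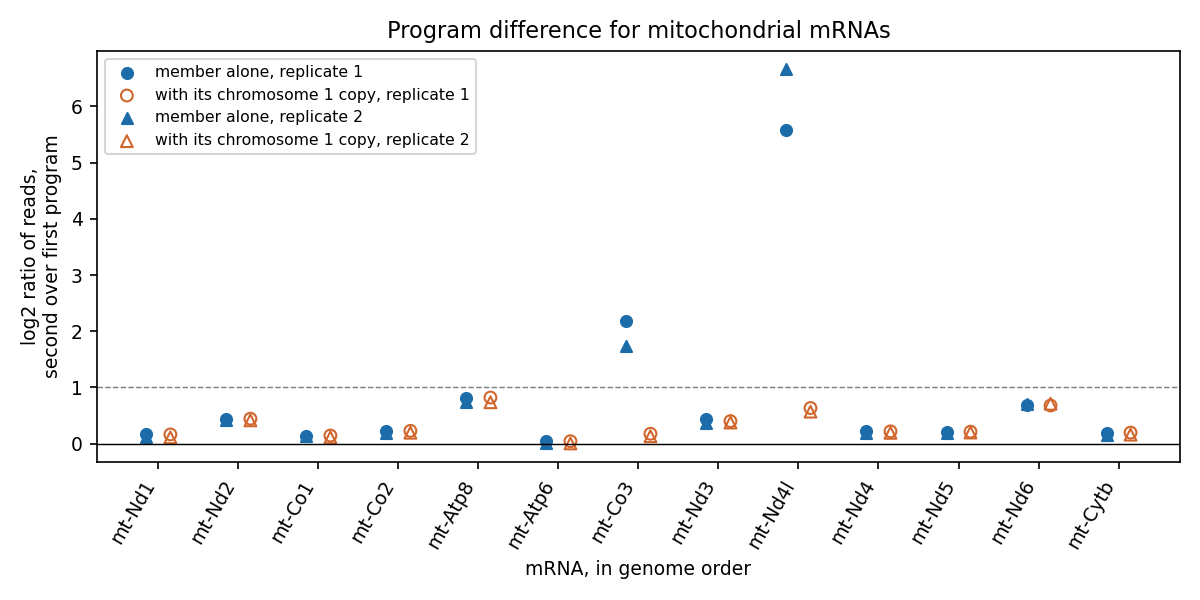
Log2 ratio of reads in the second over the first program for the 13 mRNAs, filled points for the member alone and open points with the reads of its chromosome 1 copy added, 1 shape per library. The dashed line marks 2-fold: mt-Co3 and mt-Nd4l lie above it alone, and below it with their copies (0.17 and 0.13, 0.63 and 0.57).

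The tRNAs separated the programs completely. In the first program all 22 were listed at 0 reads in both libraries, and each had an effective length of 0. They are 59 to 75 bases long. Among genes listed by both programs, 1814 had an effective length of 0 in both libraries. The longest of these had 88 bases, and the shortest gene above 0 had 89 bases. Together the 1814 held 61.99 reads in the first program over both libraries. Since an effective length of 0 went with almost no reads, a listed 0 does not tell whether tRNA reads were present. The second program gave the 22 tRNAs effective lengths of 9.45 to 15.1 bases and reads in each library. Of the 1814 genes, 2.54% reached 10 estimated counts in both libraries there, or 46 genes, and 22 of these were the mitochondrial tRNAs. They held 91.6% and 89.1% of all reads given to such short genes.

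Dividing by so short an effective length makes their TPM large. The 22 tRNAs summed to 8.44% and 8.30% of all TPM of the second program, from 0.0940% and 0.0987% of its reads, and 18 of 22 were among its 100 highest genes by TPM. In RPKM by annotated length, their median was 336 and 376, against 2164 and 1744 for the mRNAs. Which scale is used thus sets whether tRNAs stand beside the mRNAs (median 2113 and 2214 TPM, against 2765 and 2123 TPM) or well below them.

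The 4 highest and 2 lowest tRNAs are shown to give their length and place, with the anticodon in capitals. The anticodon was located as the known triplet between 2 stretches of 5 bases that pair, 5 of 5 in each of these tRNAs:
mt-Ts1, chrM:6870-6938, minus strand: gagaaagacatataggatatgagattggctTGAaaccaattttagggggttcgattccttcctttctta
mt-Th, chrM:11546-11612, plus strand: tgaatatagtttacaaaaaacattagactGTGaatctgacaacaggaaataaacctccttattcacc
mt-Ta, chrM:5018-5086, minus strand: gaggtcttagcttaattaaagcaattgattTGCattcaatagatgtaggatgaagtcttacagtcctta
mt-Tc, chrM:5192-5257, minus strand: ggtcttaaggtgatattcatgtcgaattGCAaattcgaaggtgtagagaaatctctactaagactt
mt-Ty, chrM:5260-5326, minus strand: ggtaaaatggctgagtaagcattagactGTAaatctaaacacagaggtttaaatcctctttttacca
mt-Tl2, chrM:11671-11741, plus strand: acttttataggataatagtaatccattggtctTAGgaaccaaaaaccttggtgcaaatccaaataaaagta

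Estimated counts of the second program differed widely among the tRNAs. The tRNAs are shorter than the typical sequenced fragment. These counts therefore do not tell a tRNA apart from longer RNA that holds its sequence. The highest was mt-Ts1, a serine tRNA that overlaps the end of mt-Co1 by 3 bases on the other strand, with 10293 reads in replicate 1 and 7920 in replicate 2. The histidine tRNA mt-Th, just after mt-Nd4, had 7484 and 9071. These ranges overlapped, so their order is not set. Next were the alanine tRNA mt-Ta with 5455 and 6186 reads and the cysteine tRNA mt-Tc with 5054 and 6044, whose ranges also overlapped. The glutamine tRNA mt-Tq had 3849 and 3759 reads. The glutamate tRNA mt-Te, beside mt-Nd6, had 3089 and 3318. Of these 6, all but mt-Th lie on the minus strand.

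A middle group ran from mt-Tm to mt-Tk, and below mt-Tm the range of each tRNA overlapped or touched that of the next. Highest here was the methionine tRNA mt-Tm, with 2097 and 1945 reads. The glycine tRNA mt-Tg had 1501 and 1581, and the proline tRNA mt-Tp 1221 and 1791. The phenylalanine tRNA mt-Tf, the first gene of the genome, had 1313 and 1582. The arginine tRNA mt-Tr had 1343 and 1345, nearly the same in both libraries. The asparagine tRNA mt-Tn had 1204 and 1343. The second serine tRNA, mt-Ts2, had 1109 and 1301 and is the shortest of all. Between the rRNAs, the valine tRNA mt-Tv had 1089 and 1311 reads. The threonine tRNA mt-Tt had 1019 and 1144. The leucine tRNA mt-Tl1, at the junction of mt-Rnr2 and mt-Nd1, had 960 and 1185. Last in the group, the aspartate tRNA mt-Td had 983 and 1060 reads and the lysine tRNA mt-Tk 963 and 1000.

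The lowest tRNAs were far from the highest. The tryptophan tRNA mt-Tw had 647 and 859 reads and the isoleucine tRNA mt-Ti 663 and 551, with overlapping ranges. The tyrosine tRNA mt-Ty had 364 and 410 reads, although its neighbour mt-Tc lies 2 bases away on the same strand. The second leucine tRNA, mt-Tl2, had 144 and 187, beside mt-Ts2, with which it shares 1 base. By strand, the median of the 8 minus-strand tRNAs was 3469 reads in replicate 1 and 3538 in replicate 2, and that of the 14 plus-strand tRNAs was 1054 and 1243. This is a description of where reads fell, since strand of origin is not given.

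**Figure D4:**
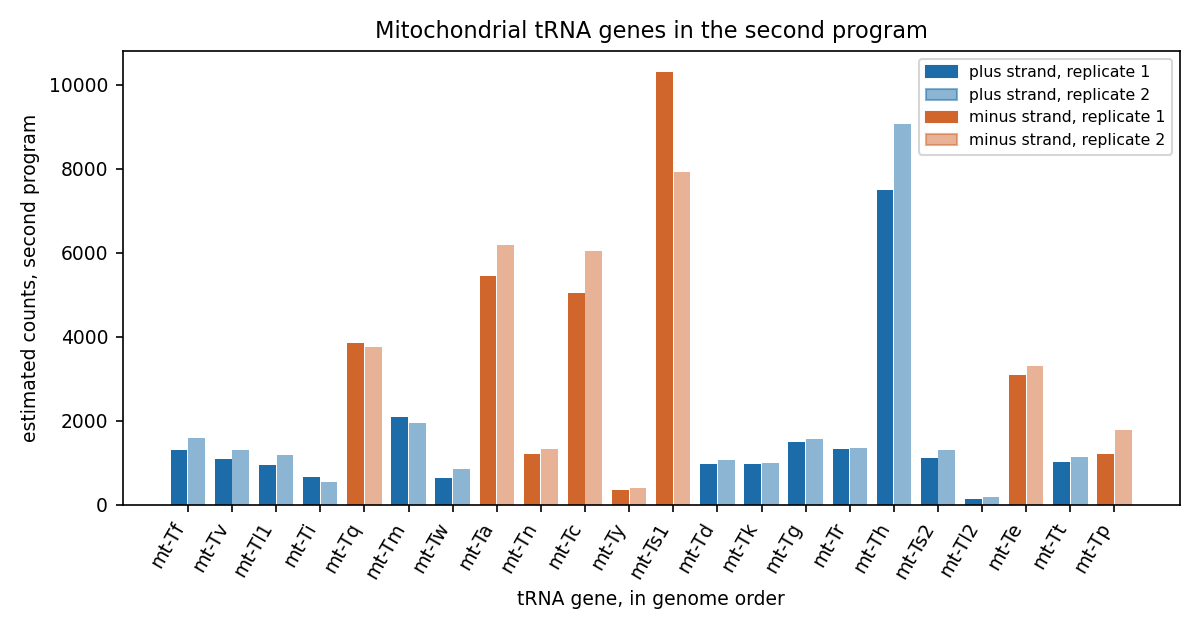
Estimated counts of the second program for the 22 tRNA genes in genome order, from 0, coloured by annotated strand with a full bar for replicate 1 and a pale bar for replicate 2. The highest bars are mt-Ts1 (10293 and 7920) and mt-Th (7484 and 9071), and the lowest mt-Tl2 (144 and 187).

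Between the libraries, reads were compared as a log2 ratio of replicate 1 over replicate 2 after TMM scaling (a trimmed mean of log ratios), with 95% Clopper-Pearson intervals that cover counting error only. With 1 library on each side there is no replicate check, and no p-value was given. In the first program 15 of 37 members had a mean of 10 reads or more, and 1 of these, mt-Nd4l, was past 2-fold. Over 17300 genes, 5.28% were past 2-fold, 3.65% higher in replicate 1 and 1.63% in replicate 2. The mt-Nd4l ratio was 1.34 (0.91 to 1.78), from 161 and 63.6 reads. With its copy added it was 0.21, and in the second program it was 0.27 (0.23 to 0.31), so the call was lost both ways. The authors' posterior mean for mt-Nd4l was 243 reads with a posterior SD of 151 in replicate 1, and 135 with 98.9 in replicate 2. Its first-program interval leaves out this looseness in how the pair was divided. In the second program 0 of 37 members were past 2-fold, beside 5.92% of 19502 genes, of which 3.94% were higher in replicate 1 and 1.98% in replicate 2.

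The classes differed by small steps. The 7 complex I mRNAs were all higher in replicate 1, with a median log2 ratio of 0.27 in the first and 0.29 in the second program. The values of mt-Nd6 were 0.52 (0.47 to 0.58) and 0.49 (0.45 to 0.53), and those of mt-Nd4 were 0.32 (0.31 to 0.34) and 0.34 (0.33 to 0.36). Of all genes, 50.1% were higher in replicate 1 in the first and 49.6% in the second program, at any size of difference. The median absolute ratio over all genes was 0.19 and 0.20, and its 90th percentile was 0.71 and 0.76. The complex I medians lie between these values, and mt-Nd1, at 0.14 and 0.19, lies below the median gene.

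Outside complex I the mRNAs differed in both directions. The ratio of mt-Co1 was 0.22 in the first and 0.21 in the second program, that of mt-Cytb 0.09 and 0.12, and that of mt-Co2 -0.03 and -0.00. For mt-Atp6 it was -0.03 and 0.01, with the sign turning between programs. For mt-Co3 it was -0.45 (-0.47 to -0.43) in the first and 0.00 (-0.01 to 0.01) in the second program, and -0.04 in the first with Gm28437 added. The first-program interval of mt-Co3 leaves out how loosely its reads were divided with Gm28437. Further below 0 in both programs were mt-Atp8, at -0.26 and -0.18, and mt-Rnr2, at -0.30 and -0.27. The small rRNA mt-Rnr1 was at 0.07 and 0.08.

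The tRNAs leaned the other way from most mRNAs. In the second program 18 of 22 were lower in replicate 1, with a median log2 ratio of -0.17 over all 22. Their median absolute ratio was 0.21, near the 0.20 of all genes in that program. The lowest was mt-Tp, at -0.56 (-0.66 to -0.45), followed by mt-Tw at -0.41 (-0.56 to -0.27) and mt-Tl2 at -0.38 (-0.71 to -0.06). The 4 higher in replicate 1 were mt-Ts1 at 0.37 (0.33 to 0.41), mt-Ti at 0.26 (0.10 to 0.43), mt-Tm at 0.10 (0.01 to 0.19) and mt-Tq at 0.03 (-0.04 to 0.09). Of these, mt-Ti, mt-Tq and mt-Tm lie in a row between mt-Nd1 and mt-Nd2, and mt-Ts1 overlaps the end of mt-Co1. Those mRNAs were higher in replicate 1, but so were 11 of all 13 mRNAs in the second program. Other tRNAs beside mRNAs higher in replicate 1 were lower, such as mt-Tl1 at -0.31, mt-Tw at -0.41, mt-Th at -0.28 and mt-Tl2 at -0.38. A link between neighbouring genes was not tested. The summed choroid plexus level differed between the same libraries, 16080 against 227 TPM, and its part in these small differences was not tested. In bulk tissue, a change in the cells present and a change in RNA per cell cannot be told apart.

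**Figure D5:**
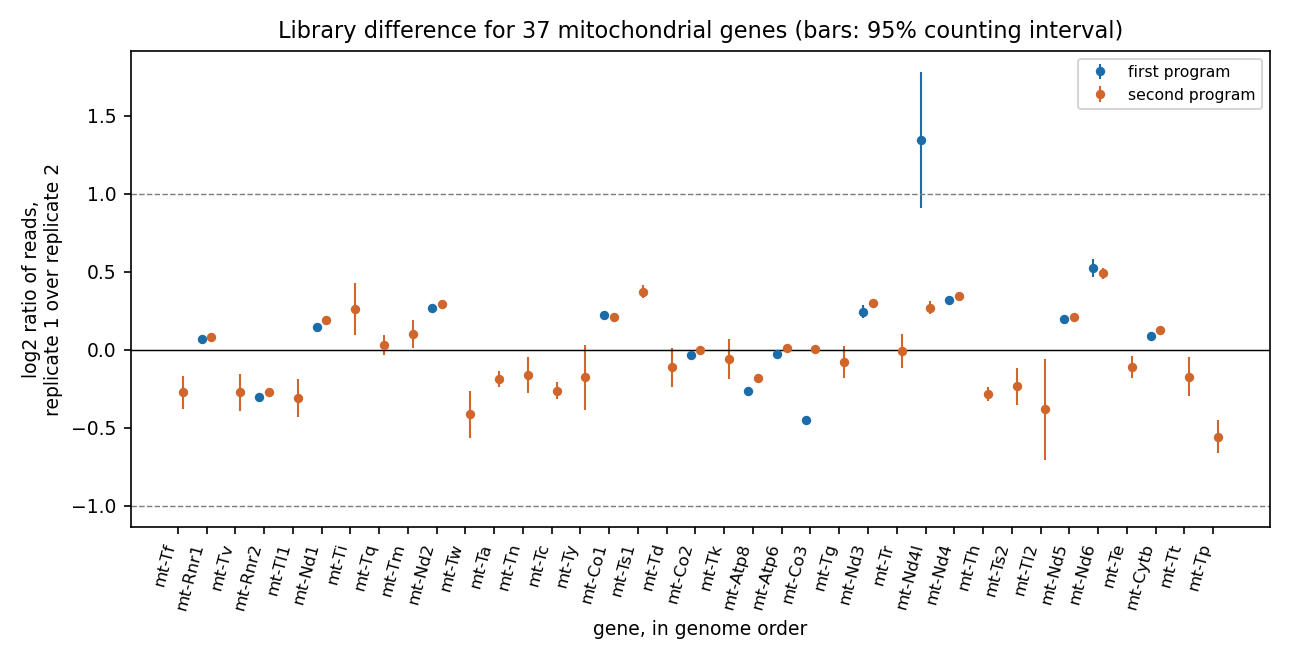
Log2 ratio of reads in replicate 1 over replicate 2 for all 37 genes in genome order, with 95% counting intervals as bars and dashed lines at 2-fold. Blue points are the first program, where tRNAs have no value, and orange points the second. Only mt-Nd4l in the first program passes a dashed line (1.34), and 18 of 22 tRNAs lie below 0.

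The nuclear genes that make and process these RNAs were measured as lists. For transcription and replication of mitochondrial DNA, 15 of 15 were at 1 TPM or more in both libraries, with a median of 12.4 TPM. They were led by the single-strand binding protein Ssbp1 at 45.5 ± 8.08 TPM (SD, n = 2), with the mitochondrial RNA polymerase Polrmt at 14.3 ± 2.37, the packaging factor Tfam at 12.8 ± 0.834 and Mterf1a lowest at 2.41 TPM. For processing, stability and tails, 19 of 19 matched genes were at that level, with a median of 16.6 TPM. Slirp, partner of the RNA-binding protein Lrpprc, had 307 ± 33.7 TPM, Lrpprc 18.4 ± 0.792, the poly(A) polymerase Mtpap 15.5 ± 0.403, and the tRNA-end nuclease Elac2 13.3 ± 1.57. Fastkd5 was lowest at 3.59 TPM. The listed Prorp matched no symbol in the annotation.

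The mitochondrial tRNA synthetases, which load tRNAs with amino acids, were at 1 TPM or more in 19 of 19 cases, with a median of 11.2 TPM. Lars2, for the leucine tRNAs, was highest at 112 ± 15.6 TPM, followed by Gars at 98.2 ± 6.06 and Fars2 at 55.7 ± 2.45, and Mars2 was lowest at 2.51 TPM. Gars and Kars also serve the cytosol. Of the 53 genes in these lists, 0 were past 2-fold between the libraries in either direction, beside 5.28% of all genes, and the list medians were -0.07, 0.08 and -0.01 on the log2 scale.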

How the data were processed

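Polyadenylated RNA of 2 hippocampus libraries in 1 group was used, with the mm10 assembly and M21 annotation named in text that the authors deposited with the tables. For program names, versions and strand settings, the sources used here give nothing. Per the file headers, the authors' gene tables hold the expected count, TPM and FPKM, with posterior means and SDs of the count, and the second program's tables hold the estimated count and TPM per transcript, summed here per gene. The log2 ratios, intervals and reads per kilobase of annotated length were computed here. Rows that name no gene, 26345 in the gene tables, held 9 and 6.49 reads (2.31e-05% and 1.64e-05%) and were left out. The second program lists no transcript for 86 genes, which stayed out of the program comparison.

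Members were the 37 symbols starting with mt-. Members and lists were chosen with earlier results of these data known. Expected counts were rounded for TMM scaling in edgeR 4.0.16 (R 4.3.3), and other steps used Python 3.11.15, numpy 2.4.6, pandas 2.3.3, scipy 1.17.1 and matplotlib 3.10.9. Library ratios used genes with a mean count of at least 10 and a prior count of 0.5. Program ratios used genes with a mean of at least 10 in the larger program, scaled to program totals. Values past 2-fold were counted, with no p-value. The named genes were all members, nuclear genes sharing at least 100 bases with one, and the fixed lists. Ratios and intervals were tested on simulated counts that held counting error only. That setting leaves out how reads are divided between near-identical genes, so it says nothing of the intervals of members with copies. The labels name no molecular identifiers, so reads may repeat a molecule and intervals cover counting error only. Alternatives were other scalings, filters, prior counts, units, the second program, each library left out and, chosen after seeing the data, copies added to members and totals without mitochondrial genes.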

Additional observations from a re-analysis of the deposited data

How the results depend on the processing

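The share of reads on the 37 genes, 6.72% of expected counts, was 10.5% of TPM and 10.5% of FPKM in the first program, and 8.30% of estimated counts and 19.2% of TPM in the second, where the tRNAs alone hold 8.37% of TPM. It stayed within the replicate SD with the nuclear copies added, at 7.08%. The copies are all of mRNAs, and the mRNA share moved beyond its SD, from 2.63% (SD 0.121) to 2.99%. With replicate 1 left out the share of all 37 genes was 7.01% and with replicate 2 left out 6.42%. With n = 2 such a shift is always below the SD, so nothing is read from it. By the second program, 22 tRNAs reached 10 reads or more in both libraries. The first program lists every tRNA at 0 with an effective length of 0. No count or TPM minimum could change that 0, so nothing is read from its holding under each one tried. The 1 member past 2-fold between libraries became 0 in the second program and 0 with copies added, and was 1 under the other scalings, filters and prior. Past 2-fold between programs were 2 mRNAs in the main setting, 4 with unscaled counts and 0 with copies added. The 22 tRNAs counted in each setting were fixed by construction and are left out of this count. Of 13 mRNAs, 5 held the same place by TPM of the second program and 4 with copies added per annotated kilobase (copies were added after seeing the data), while the other orders tried kept 9 to 13. No paired analysis was possible because there is 1 group. With 1 library per side, counting error is widest for members with few reads, such as mt-Tl2 in the second program. The mt-Nd4l value of the first program rests on how reads were divided with its identical copy.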

Other observations

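Beside the mitochondrial tRNAs, 1792 other genes had an effective length of 0 in the first program, of which 1072 are annotated as miRNA and 337 as snoRNA. In the second program 24 of them (1.34%) had 10 estimated counts or more in both libraries. The 3 highest, Gm24270, Gm23935 and Gm24245, are annotated as miRNA and were each given the same values, 1101 reads in replicate 1 and 1641 in replicate 2. The small nucleolar RNA Snord104 had 157 and 184 reads and Mir3091 had 112 and 121, near the level of the lowest mitochondrial tRNA, mt-Tl2, with 144 and 187.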
